A study of Mus musculus with 4 samples.

Results

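Genes of inhibitory neuroblasts, the 8 members of a named list (Dlx1, Dlx2, Dlx5, Dlx6, Sp8, Sp9, Gad1 and Gad2), were followed through single-cell RNA sequencing of 4 mouse brain tumors. They were chosen by name and make up 8 of the 21861 features counted. Each tumor came from 1 mouse and gave 1 library. All mice carried hGFAP-cre, TP53Fl/Fl and lsl-MYCN, so Cre, driven by a promoter active in embryonic radial glia, removed both copies of Trp53 and switched on human MYCN with firefly luciferase (FLUC) from the Rosa26 locus. Mouse 4 and mouse 5 were 43 days old (P43) and mouse 6 and mouse 7 were 70 days old (P70). There were no mice without the transgene or without the Trp53 deletion. Tumors were digested to single cells, and immune, vessel and other brain cells were counted beside the tumor cells. The only stand-in for normal cells is therefore cells of the same tumors in which no transgene RNA was counted. These can include tumor cells of low depth, and normal descendants of radial glia may carry the transgene too. The split thus does not cleanly separate normal from tumor cells. Libraries of later ages (P77, P92) were not analysed here.

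The DLX proteins are homeodomain transcription factors of the embryonic ventral forebrain, where they drive progenitors towards inhibitory neurons and away from the oligodendrocyte fate. Their genes lie in convergently transcribed pairs, Dlx1 with Dlx2 and Dlx5 with Dlx6, and members of a pair share enhancers. SP8 and SP9 are zinc finger factors that act in the same neuroblasts on their way to the olfactory bulb (OB). Gad1 and Gad2 encode GAD67 and GAD65, the enzymes that make the transmitter GABA from glutamate, and mark the inhibitory neuron itself. In the postnatal brain these neuroblasts are born in the ventricular-subventricular zone.

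In the GENCODE vM21 annotation of GRCm38, Dlx1 lies at chr2:71528113-71533981 on the plus strand and Dlx2 at chr2:71543408-71546754 on the minus strand, with 9.43 kb between them. Dlx6 lies at chr6:6863334-6868568 on the plus strand and Dlx5 at chr6:6877805-6882085 on the minus strand, with 9.24 kb between them. Gad1 (chr2:70553072-70602014, plus strand) is 926 kb from Dlx1, and Gad2 (chr2:22622205-22693874, plus strand), Sp9 (chr2:73271925-73284706, plus strand) and Sp8 (chr12:118846329-118852576, plus strand) stand alone. Dlx5 shares its chromosome with Rosa26, the site of the transgene, at a distance of 106 Mb. RefSeq (GRCm38.p6) gave promoter sequence for 6 of the 8 members. Those of the Dlx1 and Dlx2 pair and of the Gad genes are printed because the results below turn on which of these 2 groups a cell holds. Each is the 250 bases before a RefSeq transcription start, 5′ to 3′ on the strand of the gene, and capitals mark CACGTG, an E-box to which MYC family proteins bind. The windows are chr2:71529195-71529444, plus strand (Dlx1), chr2:71546755-71547004, minus strand (Dlx2), chr2:70561879-70562128, plus strand (Gad1) and chr2:22622077-22622326, plus strand (Gad2).
Dlx1: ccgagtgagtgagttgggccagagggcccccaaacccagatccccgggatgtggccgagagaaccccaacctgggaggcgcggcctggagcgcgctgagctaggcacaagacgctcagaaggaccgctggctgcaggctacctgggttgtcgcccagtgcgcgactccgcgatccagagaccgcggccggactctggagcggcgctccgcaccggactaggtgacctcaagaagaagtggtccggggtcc
Dlx2: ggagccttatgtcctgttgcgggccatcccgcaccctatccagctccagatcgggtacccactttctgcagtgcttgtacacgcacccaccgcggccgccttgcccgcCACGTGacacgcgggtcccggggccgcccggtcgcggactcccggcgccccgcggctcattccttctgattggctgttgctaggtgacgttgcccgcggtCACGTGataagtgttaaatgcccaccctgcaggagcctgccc
Gad1: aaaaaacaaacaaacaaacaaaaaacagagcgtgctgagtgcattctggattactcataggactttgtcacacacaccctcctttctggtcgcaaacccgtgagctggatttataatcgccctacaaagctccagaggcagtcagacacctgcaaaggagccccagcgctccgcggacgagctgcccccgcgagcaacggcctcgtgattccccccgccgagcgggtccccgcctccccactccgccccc
Gad2: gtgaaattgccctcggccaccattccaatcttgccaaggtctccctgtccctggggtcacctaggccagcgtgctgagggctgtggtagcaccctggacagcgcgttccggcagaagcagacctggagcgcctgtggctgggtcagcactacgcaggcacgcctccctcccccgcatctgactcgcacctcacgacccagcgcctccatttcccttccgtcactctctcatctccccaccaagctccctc
CACGTG, which reads the same on both strands, was found at 2 places before Dlx2 and in none of the other 3 windows, and 6.02% of 32851 mouse windows of this length held it. TAATT, a core that homeodomain proteins bind, was searched on both strands and was absent from all 4 windows, while 8223 of the 32851 windows held it. Before Sp9 it was found at 2 places, and before Sp8 in windows 1 and 3 of 3.

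The libraries differed in depth and in tumor content. Of 3430, 1739, 2972 and 3693 barcodes in mice 4 to 7, 3319, 1456, 2731 and 3469 cells were kept, with medians between 1419 (mouse 4) and 10449 (mouse 7) unique molecular identifiers (UMIs), each standing for 1 captured mRNA. A UMI of MYCN or FLUC, together called the reporter, was found in 39.0%, 30.6%, 26.1% and 87.4% of the cells. As a background, 3.70%, 13.2%, 6.95% and 11.7% of the Myeloid cells, which do not descend from radial glia, held a reporter UMI too. Any 2 libraries shared between 1 and 3 kept barcodes. The 4 Y-linked genes counted together reached 196, 0.422, 188 and 0 CPM (UMIs of a gene per 1000000 UMIs of the cells named) in the cells without a reporter UMI. Mouse 4 is labelled female and mouse 5 male, so both P43 libraries went against their sex labels, whereas both P70 libraries matched theirs. Since mice 4 and 5 have the same age, the grouping by age did not rest on this label. No doublet caller was run, and the limit of 40000 UMIs was the only step against doublets.

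Cells were clustered without the 8 genes, without other genes of the inhibitory lineage and without the reporter. Tumor clusters were oligodendrocyte-like (OL-like, 2083, 237, 414 and 2125 cells in mice 4 to 7), neuroblast-like (NB-like, 120, 11, 56 and 596 cells) and astrocyte-like (AC-like, 18, 10, 50 and 191 cells). The NB-like class held clusters 8 and 11, which differed between mice. In cluster 8 of mouse 7, the 8 neuroblast markers, among them Dcx and Sox11, summed to 3028 CPM, but in mice 4, 5 and 6 they reached 146, 577 and 251 CPM and Ptprc, which encodes the leukocyte surface protein CD45, reached 459, 269 and 567 CPM against 0.528 CPM in mouse 7. The cells of cluster 8 from mice 4 to 6 thus went against the name. In cluster 11 the neuroblast markers were high in every mouse, at 2128, 3454, 3598 and 4251 CPM. In mouse 4 that cluster also held 49196 CPM of mature oligodendrocyte markers, against 245, 70.0 and 148 CPM in mice 5, 6 and 7. Most NB-like cells of mouse 7 carried the reporter (94.6%), whereas 29.2%, 54.5% and 46.4% did so in mice 4, 5 and 6. Cells of tumor clusters without a reporter UMI could be shallow. In mouse 4, 951 of 2083 OL-like cells had none, at a median of 875 UMIs against 2615.5 with the reporter.

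The 8 genes were sparse. They summed to 2044 UMIs in 1039 kept cells, with 137, 350, 104 and 1453 UMIs in mice 4 to 7. A member was found in 2.08%, 7.69%, 2.71% and 22.6% of the cells. OL-like cells held 1013 of these UMIs, NB-like cells 873 and AC-like cells 98. Another 53 UMIs fell in the other named classes and 7 in a cluster without a name. These counts also follow class size. In mice 5 and 7, oligodendrocyte precursor cells held 35.6 and 19.3 CPM of the members, against 33.5 and 24.9 CPM in OL-like cells. The cluster without a name held 68.0 and 42.4 CPM there, on 3 UMIs each. Myeloid cells held 0, 1.88, 0.221 and 2.59 CPM in mice 4 to 7. Few of the cells with a member held the genes together as an inhibitory neuroblast does. Of the 1039 cells, 20 held a Gad gene with a Dlx gene, 32 a Gad gene without Dlx, 977 Dlx without Gad and 10 only Sp8 or Sp9. The heat map of the 8 genes shows that each pair had a distribution of its own.

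**Figure D1:**
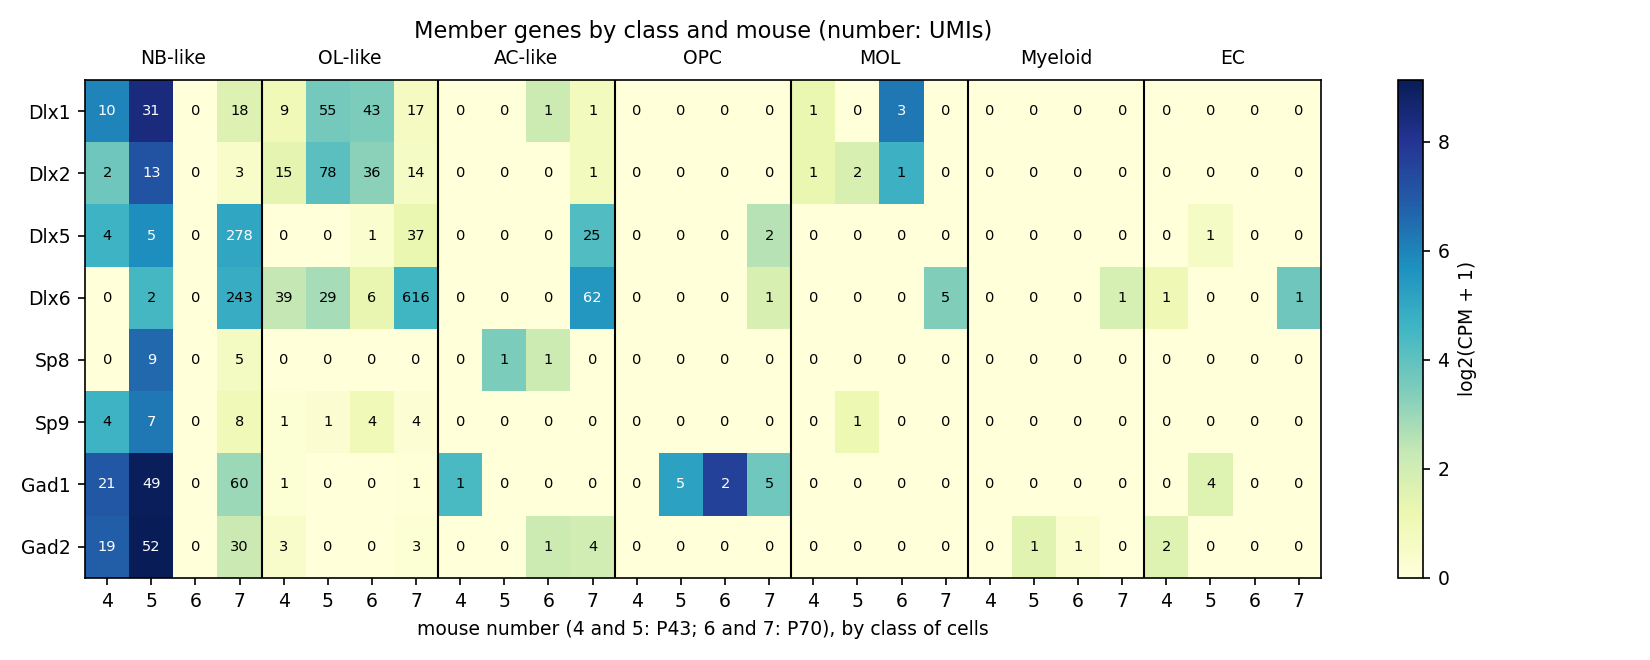
Level of each gene (rows) in 7 classes of cells and 4 mice (columns), as log2(CPM + 1) of the summed UMIs in color, with the number of UMIs printed in each field. Dlx1 and Dlx2 had their highest numbers of UMIs in OL-like cells of mice 5 and 6, Dlx5 and Dlx6 in NB-like, OL-like and AC-like cells of mouse 7, and Gad1 and Gad2 in NB-like cells of mice 4, 5 and 7.

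Dlx1 and Dlx2, the pair that acts first in ventral progenitors, had their highest numbers of UMIs in OL-like tumor cells of mice 5 and 6. In OL-like cells Dlx1 stood at 0.938, 11.3, 10.0 and 0.613 CPM in mice 4 to 7. Dlx2 stood at 1.56, 16.0, 8.40 and 0.504 CPM. Mouse 5 (P43) and mouse 6 (P70) were high and the other mouse of each age was low, so that the ages overlapped for both genes. OL-like cells held 124 of 199 Dlx1 UMIs and 143 of 166 Dlx2 UMIs. Reporter cells held 83.4% and 93.4% of them. Of the UMIs of all genes they held 8721660 of 12909080, 6043096 of 10788003, 6229328 of 15845183 and 38113504 of 39543735 in mice 4 to 7. Dlx1 in mice 4 and 7 (59.1% and 73.7%) and Dlx2 in mouse 7 (94.4%) lay below that share. At an equal depth of 2000 UMIs per cell, Dlx1 or Dlx2 was found in 0.392% (3 of 766), 5.94% (13 of 219), 2.68% (9 of 336) and 0.285% (6 of 2103) of OL-like cells. The 95% exact binomial intervals, which cover counting error only, ran from 3.20 to 9.94% in mouse 5 and from 1.23 to 5.02% in mouse 6, above the interval of mouse 7 (0.105 to 0.620%). Thinning left out 1317, 18, 78 and 22 OL-like cells. Without thinning the shares were 1.15%, 30.8%, 14.0% and 1.32%, at medians of 1364, 23336, 4741 and 12074 UMIs. No Dlx1 or Dlx2 UMI was found in Myeloid or endothelial cells (EC) of any mouse, for example in 0 of 806 Myeloid cells of mouse 6 (median depth 5371.5 UMIs). Among mature oligodendrocytes, 2 of 63, 2 of 59, 2 of 3 and 0 of 78 cells of mice 4 to 7 held one without thinning. At 2000 UMIs per cell these were 0 of 63, 0 of 59, 1 of 2 and 0 of 75. Dlx1 and Dlx2 were found in the same cell 37 times, 22 times in mouse 5 and 11 times in mouse 6, and 34 of these cells had a reporter UMI.

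The NB-like cells gave another picture for this pair. In mice 4 to 7, Dlx1 in NB-like cells stood at 61.2, 334, 0 and 2.09 CPM, on 10, 31, 0 and 18 UMIs. Dlx2 stood at 12.2, 140, 0 and 0.348 CPM, on 2, 13, 0 and 3 UMIs. Dlx1 was higher in both P43 mice than in both P70 mice, whereas the interval of Dlx2 in mouse 4 (1.48 to 44.2) overlapped that of mouse 6 (0 to 8.03). In mouse 6, 0 of 459423 UMIs of NB-like cells allowed a level of up to 6.53 CPM for each gene.

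Dlx5 and Dlx6, the pair that acts later in the same lineage, had most of their UMIs in mouse 7 (344 of 356 for Dlx5 and 933 of 1012 for Dlx6). Dlx6 stood at 4.07, 5.96, 1.40 and 22.2 CPM in OL-like cells of mice 4 to 7, on 39, 29, 6 and 616 UMIs. Dlx5 in the same cells stood at 0, 0, 0.233 and 1.33 CPM. Among the NB-like cells of mice 4 to 7, Dlx5 stood at 24.5, 53.9, 0 and 32.3 CPM, on 4, 5, 0 and 278 UMIs, and Dlx6 stood at 0, 21.5, 0 and 28.2 CPM, on 0, 2, 0 and 243 UMIs. The level of Dlx5 in mouse 7 (95% exact Poisson interval 28.6 to 36.3) lay within the intervals of mouse 4 (6.67 to 62.7) and mouse 5 (17.5 to 126). It lay above that of mouse 6 (0 to 8.03). These levels came from unlike cells. In mice 4 and 5, all Dlx5 UMIs of NB-like cells lay in cells that also held Gad RNA. In mouse 7, 226 of 231 NB-like cells with Dlx5 or Dlx6 held no Gad, Dlx1 or Dlx2 UMI. AC-like cells of mouse 7 held 18.1 CPM of Dlx5 and 44.8 CPM of Dlx6, and the 18, 10 and 50 AC-like cells of mice 4 to 6 held no UMI of either, which allows up to 60.3, 30.5 and 10.1 CPM. Dlx5 in mouse 7 was thus above this limit in mouse 6 alone, and Dlx6 in mice 5 and 6. The pair did not move as a unit between classes: in mouse 7, Dlx5 had 278 UMIs in NB-like and 37 in OL-like cells, and Dlx6 had 243 and 616. Of 356 Dlx5 UMIs and 1012 Dlx6 UMIs, 96.6% and 97.7% came from reporter cells. In mouse 7, where most of them lay, reporter cells held 38113504 of 39543735 UMIs of all genes, a share close to these. At 2000 UMIs per cell, Dlx5 or Dlx6 was found in 0.914%, 0.913%, 0.298% and 4.04% of OL-like cells, and the interval of mouse 7 (3.24 to 4.97%) overlapped that of mouse 5 (0.111 to 3.26%) but not those of mice 4 and 6. The share was 9.18% in NB-like cells and 6.63% in AC-like cells of mouse 7. In Myeloid cells it was 0 of 36, 65, 762 and 89 cells. Mature oligodendrocytes of mouse 7 held one in 2.67% (2 of 75, interval 0.325 to 9.30%), which overlapped the interval of its OL-like cells. Those of mice 4 to 6 held one in 0 of 63, 59 and 2 cells. Without thinning, the OL-like shares were 1.34%, 8.02%, 1.21% and 21.1%, and 1 of 145 Myeloid cells of mouse 7 held a UMI. Dlx5 and Dlx6 were found together in 106 cells, of which 105 came from mouse 7 and 105 had a reporter UMI.

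**Figure D2:**
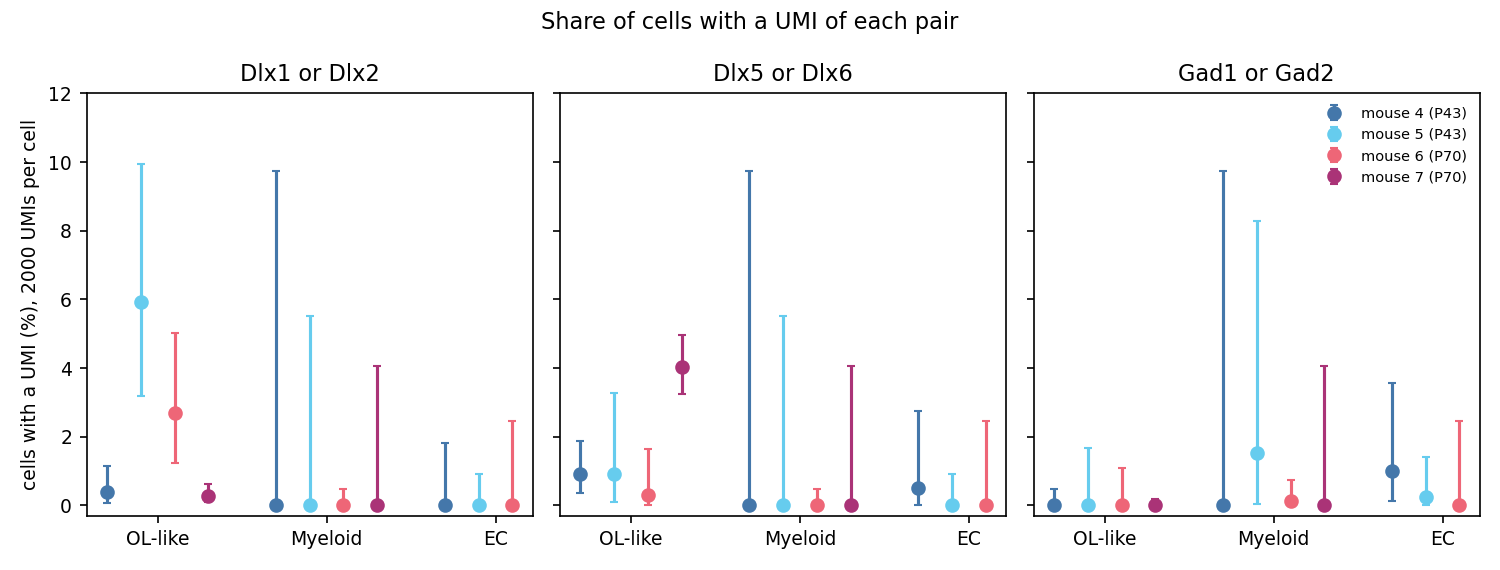
Percent of OL-like, Myeloid and endothelial (EC) cells with a UMI of each gene pair after thinning to 2000 UMIs per cell, by mouse, with 95% exact binomial intervals. EC of mouse 7 are not drawn since fewer than 30 cells were left. Dlx1 or Dlx2 reached 5.94% and 2.68% of OL-like cells in mice 5 and 6, Dlx5 or Dlx6 reached 4.04% in mouse 7, and Gad1 or Gad2 was found in no OL-like cell.

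Sp8 and Sp9, which are needed for the maturation of OB interneurons, gave few UMIs. Sp8 had 0, 10, 1 and 5 UMIs in mice 4 to 7, of which 14 of 16 lay in NB-like cells and 18.8% in reporter cells. Sp9 had 5, 9, 4 and 12 UMIs, of which 19 of 30 lay in NB-like cells and 56.7% in reporter cells. No Sp8 UMI was found in OL-like cells of any mouse, and Sp9 had 1, 1, 4 and 4 UMIs there. In NB-like cells of mice 4 to 7, Sp8 stood at 0, 96.9, 0 and 0.581 CPM, and the 95% exact Poisson interval of mouse 5 (44.3 to 184) lay above that of mouse 7 (0.189 to 1.36). Sp9 stood at 24.5, 75.4, 0 and 0.929 CPM there, with intervals of 30.3 to 155 in mouse 5 and 0.401 to 1.83 in mouse 7. These intervals rest on between 5 and 9 UMIs each and cover counting error only.

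Gad1 and Gad2 lay mainly in NB-like cells. Gad1 had 130 of 149 UMIs there and Gad2 101 of 116. In mice 4 to 7, Gad1 in these cells stood at 128, 528, 0 and 6.97 CPM. Gad2 stood at 116, 560, 0 and 3.48 CPM. As for Dlx1, the P43 mice were higher than the P70 mice over the whole class. These levels came from few cells, since a Gad UMI was found in 4 of 120, 6 of 11, 0 of 56 and 10 of 596 NB-like cells. Cluster 11 held 40, 99, 0 and 89 Gad UMIs (539, 2425, 0 and 30.4 CPM) and cluster 8 held 0, 2, 0 and 1. OL-like cells had 4, 0, 0 and 4 Gad UMIs in mice 4 to 7, and at 2000 UMIs per cell 0 of 766, 219, 336 and 2103 OL-like cells held one, which allows shares of up to 0.392%, 1.37%, 0.893% and 0.143%. Of 672 OL-like cells with Dlx RNA, 670 thus had no Gad UMI. Outside NB-like cells, Gad1 was also found in oligodendrocyte precursor cells (OPC), with 0, 5, 2 and 5 UMIs, and in EC of mouse 5, with 4 UMIs. Reporter cells held 36.2% of the Gad1 and 35.3% of the Gad2 UMIs over all mice. By mouse these shares were 13.0%, 34.5%, 0% and 47.0% for Gad1 and 33.3%, 32.1%, 50% (1 of 2 UMIs) and 40.5% for Gad2, against at least 59.1% for Dlx1, 88.9% for Dlx2 and 82.9% for Dlx6 in every mouse. For Dlx5 it was 1 of 4, 4 of 6, 1 of 2 and 338 of 344 UMIs, so that in mice 4 and 6 its share was not above that of Gad2. Gad1 and Gad2 were found in the same cell 14 times, each time in an NB-like cell.

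The 20 cells with both a Gad and a Dlx UMI came from mouse 4 (2), mouse 5 (5) and mouse 7 (13), and none came from mouse 6. In 15 of them, all NB-like and 14 in cluster 11, Gad1 was present with between 1 and 19 UMIs, and the reporter with between 0 and 6 UMIs. Of these, 8 had no reporter UMI at all. Their reporter level was at most 575 CPM, against sums of 835, 3091, 3128 and 1771 CPM in OL-like cells of mice 4 to 7. The other 5 were AC-like (3) or OL-like (2) cells of mouse 7 with a single Gad2 UMI each, no Gad1 and between 10 and 92 reporter UMIs. Cells with many Gad UMIs had few reporter UMIs and the reverse, as the plot of both counts per cell shows. Within the NB-like ones, 3 cells of P43 mice with 2, 3 and 6 reporter UMIs had 6 or fewer Gad UMIs and no UMI of Slc32a1, which encodes the vesicular GABA transporter. Few Gad UMIs were also found at low reporter counts: 3 cells of mouse 7 with 0, 0 and 1 reporter UMIs had 1, 4 and 3 Gad1 UMIs. None of these had Gad2, and the latter 2 had no Slc32a1 UMI either.

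**Figure D3:**
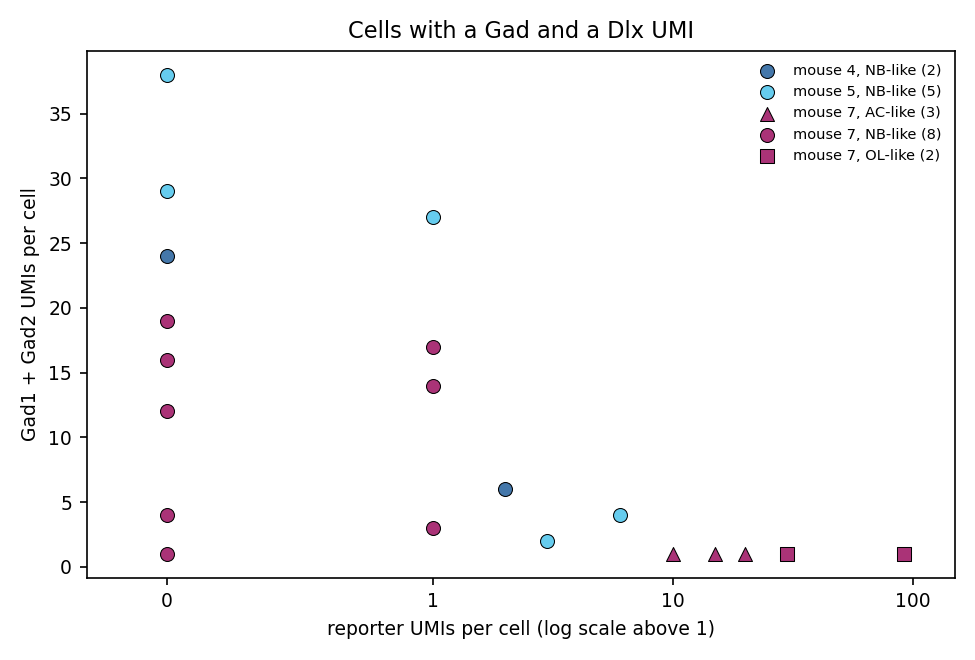
Reporter UMIs (x axis, log scale above 1) against Gad1 plus Gad2 UMIs (y axis) in each of the 20 cells with a Gad and a Dlx UMI, colored by mouse and shaped by class, with the number of cells in the legend. All cells with more than 6 Gad UMIs had 0 or 1 reporter UMI, and the 5 cells with 10 or more reporter UMIs had 1 Gad UMI.

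The other genes of the inhibitory lineage were read in the same 20 cells. Of 24 listed genes, 22 were among the features, and 13 of these had a UMI. Meis2, a homeodomain factor of striatal and OB neuroblasts, stood at 1323 CPM and was found in 14 cells. Slc32a1 was found in 10 cells (174 CPM), Calb2, which encodes calretinin, in 6 (788 CPM) and Th, the tyrosine hydroxylase of dopaminergic OB interneurons, in 7 (220 CPM). Tshz1, Etv1 and Npy stood at 287, 267 and 174 CPM. Lhx6, Sst and Pvalb, genes of cortical interneurons, and the progenitor genes Gsx1 and Gsx2 had 0 UMIs, which allows up to 20.04 CPM each. All 11 listed genes of the excitatory lineage, among them Neurod1, Neurog2, Eomes and Tbr1, had 0 UMIs in these cells as well. In 624 NB-like reporter cells that did not hold Gad with Dlx, Neurod1 stood at 645 CPM in 546 cells, Slc32a1 had 0 UMIs and Th had 1. These cells come nearly all from mouse 7, and they and the 20 cells were chosen by the genes described, so that no test was made.

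Dlx5 and Dlx6 were found in Neurod1 cells. In NB-like reporter cells of mouse 7, Neurod1, a factor of excitatory neuroblasts, was present in 96.4% (217 of 225) of the cells with Dlx5 or Dlx6 and in 90.9% (308 of 339) of those without, at medians of 16770 and 12575 UMIs. At 2000 UMIs per cell the shares were 67.9% (36 of 53, interval 53.7 to 80.1%) and 67.5% (345 of 511, interval 63.3 to 71.6%), so that no difference was detectable at equal depth. Of the 977 cells with Dlx but without Gad, 774 held Dlx5 or Dlx6 only (29, 16, 5 and 724 in mice 4 to 7) and 192 held Dlx1 or Dlx2 only (27, 73, 63 and 29). The first kind lay in OL-like (488), NB-like (226) and AC-like (41) cells. The second kind lay nearly all in OL-like cells (172) and in only 3 NB-like cells. Both pairs without Gad were found in 11 cells.

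Cells with and without a reporter UMI were compared to ask which of the 8 genes went with transgene RNA. UMIs were summed per mouse on each side and tested with the mouse as a block by edgeR's quasi-likelihood test over 13643 genes, with Benjamini-Hochberg adjustment at 0.05. In such sums, fewer cells of a type and less RNA per cell cannot be told apart. Of the 8 members 7 passed the filter on low counts, and Sp9 did not. Of these, 1 was higher and 1 was lower with the reporter, while over all genes 17.3% were higher and 21.2% were lower (38.5% in either direction, and 49.8% at an unadjusted p under 0.05, where 4 members stood), so that the share called among the members was not above that of all genes. Their median log2 fold change was 0.21, against 0.03 over all genes tested.

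Dlx6 rose with the reporter. It stood at 3.90, 4.96, 0.963 and 24.1 CPM in reporter cells of mice 4 to 7 and at 1.67, 0.422, 0 and 9.79 CPM in the other cells, higher in 4 of 4 mice. The log2 fold change was 2.17 (SE 0.62, adjusted p = 0.0362, edgeR). Gad1 fell. It stood at 0.344, 3.31, 0 and 0.813 CPM in reporter cells and at 4.78, 8.01, 0.208 and 24.5 CPM in the others. Reporter cells were thus lower in mice 4, 5 and 7. In mouse 6 the count of 0 allows up to 0.482 CPM, above the value of the other side (2 UMIs), so no direction is shown there. The log2 fold change was -3.23 (SE 0.84, adjusted p = 0.0271, edgeR). Both calls depended on single libraries: without mouse 4 neither was made (Dlx6 adjusted p = 0.0918, Gad1 0.107), without mouse 5 only that of Gad1, without mouse 7 neither (Dlx6 0.0597, Gad1 0.0834) but Dlx2 was called higher, and without mouse 6 both were made.

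Dlx2 had 1.83, 14.1, 5.94 and 0.446 CPM in reporter cells and 0.478, 1.69, 0 and 0.699 CPM in the others, higher in 3 of 4 mice, with a log2 fold change of 3.25 (SE 1.04) that missed the threshold (adjusted p = 0.0502, edgeR). Gad2 was at 0.917, 2.81, 0.161 and 0.394 CPM against 3.82, 7.59, 0.104 and 15.4 CPM, lower in 3 of 4 mice, with a log2 fold change of -2.46 (SE 0.95, adjusted p = 0.0839, edgeR). DESeq2 called these 2 genes as well, Dlx2 higher and Gad2 lower, with 18.2% of all genes higher and 23.4% lower (41.6% together). Dlx1 showed mice in both directions: it was higher with the reporter in mice 5 and 6 (12.7 against 2.53 and 7.71 against 0.208 CPM) and lower in mice 4 and 7 (1.49 against 2.15 and 0.735 against 6.99 CPM), with a log2 fold change of 0.92 (SE 1.37, adjusted p = 0.623, edgeR). Dlx5 (0.21, SE 0.74) and Sp8 (-3.56, SE 2.08) were not called, at adjusted p-values of 0.837 and 0.229 (edgeR).

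**Figure D4:**
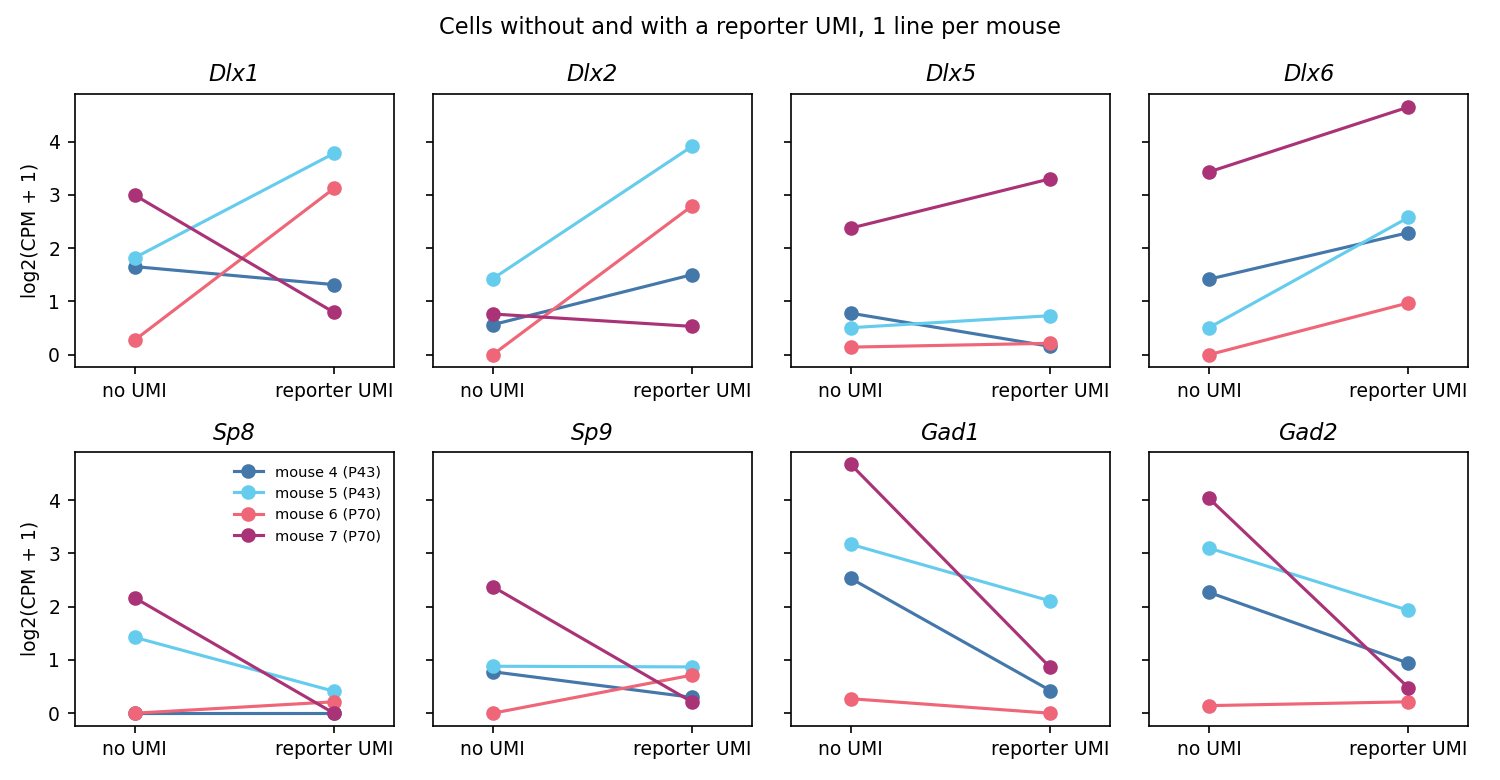
Level of each gene as log2(CPM + 1) in cells without (left) and with (right) a reporter UMI, 1 line per mouse, without error bars. With the reporter, Dlx6 is higher in 4 of 4 mice, whereas Dlx1 is higher in mice 5 and 6 and lower in mice 4 and 7. Gad1 is lower in mice 4, 5 and 7, and in mouse 6 its 2 UMIs show no direction.

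The lists of related genes were read in the same test. Of 11 listed excitatory genes 7 were tested, and 5 were higher with the reporter: Neurod1, Neurod6, Neurog2, Nhlh1 and Nhlh2, all helix-loop-helix factors, with log2 fold changes of 3.65, 3.64, 3.29, 3.48 and 3.08. Eomes, a T-box factor that is also expressed by lymphocytes, was lower (-4.67). Their median was 3.29. Of the inhibitory genes 12 were tested, none was higher, and Slc32a1 was lower (-4.66, SE 1.06, adjusted p = 0.0184, edgeR), in the direction of Gad1. Their median was 0.65. These calls depended on single libraries too. With mouse 4, 5, 6 or 7 left out, 2, 1, 2 and 2 excitatory genes were called higher. No inhibitory gene was called lower without mouse 4, 5 or 7. In mouse 6, Slc32a1 UMIs lay in dendritic (2), Myeloid (1) and neutrophil (2) cells. The largest class among cells without a reporter UMI was OL-like in mouse 4 (951 of 2025 cells), EC in mouse 5 and Myeloid in mice 6 and 7, so the sums also compared tumor with other cell types. Depth moved as well, with medians of 2295, 8446, 4793.5 and 11550 UMIs with the reporter and 1074, 3717, 4458 and 2648.5 without. The part of this makeup and of depth in the calls was not tested.

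The same split was made within the NB-like clusters. Outside mouse 7, their cells without a reporter UMI were in large part not neuroblast-like. Cluster 8 held 39 of 85, 3 of 5, 29 of 30 and 20 of 32 of the cells without a reporter UMI in mice 4 to 7. Ptprc stood at 363, 261, 575 and 0 CPM in these cells against 0, 0, 4.91 and 0.354 CPM with the reporter. In mouse 4 the cells without a reporter UMI held 31953 CPM of mature oligodendrocyte markers. In mouse 7, cluster 8 as a whole was high in neuroblast markers, so its share there does not mark cells as other types. In the clusters as they stood 4 of the 8 members were tested and 0 were called, with 1.36% of 3314 genes called (45 genes, 0.0604% higher and 1.3% lower). An unadjusted p under 0.05 was found for 504 genes (15.2%), Gad1 among them, and DESeq2 called no member and 1.83% of all genes (0.204% higher, 1.63% lower). Gad1 had a log2 fold change of -3.45 (SE 1.296, adjusted p = 0.269), Gad2 of -2.45 (SE 1.47, 0.472), Dlx1 of -1.04 (SE 1.58, 0.819) and Dlx2 of 0.63 (SE 2.75, 0.953) in edgeR. In simulated data of this layout 47.5% of genes changed 4-fold were recovered, with the genes of lowest expression left out of the change.

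The result turned on how a neuroblast-like cell was defined. When cells with UMIs of at least 3 of the 8 neuroblast markers were taken in place of the clusters, Gad1 and Gad2 summed to 3.71, 24.1, 0 and 1.01 CPM in reporter cells of mice 4 to 7 (99, 55, 54 and 1089 cells) and to 750, 1250, 195 and 158 CPM in cells without (5, 6, 1 and 36 cells). The values of the cells without a reporter UMI lay above those of the reporter cells in mice 4, 5 and 7. In mouse 6 the value came from 2 UMIs of 1 cell that was classed as OPC, so it does not speak for neuroblast-like cells. In mouse 4, 1 cell held all of these Gad UMIs (15 of Gad1 and 9 of Gad2). In mouse 5, 2 cells held all of them (32 and 35). Median depth was 7756, 7654.5, 10221 and 5388 UMIs without the reporter, against 25964, 27470, 23604.5 and 14516 with it. Mice 4, 5 and 7 had enough cells to be fitted. Of 7 members tested, 4 were then lower in reporter cells, with 2.46% of all genes lower, 0.548% higher and 3.01% in either direction. The log2 fold change was -6.69 for Gad1 (adjusted p = 6.73e-19), -6.10 for Gad2 (7.81e-17) and -4.43 for Dlx1 (3.86e-06) in edgeR, and Sp9 was the other gene called. With so few mice and so few cells without a reporter UMI, these p-values lean on variance shared with other genes. The median log2 fold change over all genes was 0.27. The reporter cells of this definition included OL-like cells, with 5279, 6344, 6308 and 2759 CPM of mature oligodendrocyte markers. The part of these cells in the difference was not tested.

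P43 was compared with P70 in 4 sets of cells, each with 2 mice per age, and edgeR called 0 members in all of them. It also called 0 genes of any kind (0%). In all kept cells, 5 members were tested of 13973 genes, and 466 genes (3.34%) had an unadjusted p under 0.05, with 72 called by DESeq2 (0.475%; 0.152% higher and 0.323% lower) and no member among either. The median log2 change was -1.52 over the members tested and 0.14 over all genes. Simulated 4-fold changes were recovered in 0% of genes here, so a lack of calls carries little weight. Gad1 stood at 1.78 and 5.38 CPM at P43 and at 0.126 and 1.67 CPM at P70, and Gad2 at 1.86 and 4.91 against 0.126 and 0.936 CPM. The ages were thus apart in these values only. Gad1 in mouse 4 (23 UMIs) and mouse 7 (66 UMIs) was nearly equal, and Gad2 rested on 24 and 37 UMIs there, so counting error does not keep the ages apart. The fitted log2 changes of P70 over P43 were -1.78 (SE 1.29) for Gad1 and -2.42 (SE 1.12) for Gad2. Dlx6 stood at 3.18 and 2.97 CPM at P43 and at 0.379 and 23.6 CPM at P70, 1 mouse on each side of the younger pair (2.08, SE 1.71). Dlx1 (-0.96, SE 1.10) and Dlx2 (-1.52, SE 1.31) overlapped too. All 5 had an adjusted p of 0.998 (edgeR). When mouse 6 was left out, Dlx5 and Dlx6 were called higher and Dlx2 lower at P70 (14.9% of all genes called), and when mouse 7 was left out, Gad1 and Gad2 were called lower (11.3% of all genes). The lone P70 mouse is then assumed to vary like the P43 mice.

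In NB-like cells, the levels of Dlx1, Gad1 and Gad2 given above did not overlap between ages over the whole class. Their log2 changes of P70 over P43 were -6.70 (SE 1.21), -5.97 (SE 1.24) and -6.87 (SE 1.23), with adjusted p-values of 0.240, 0.261 and 0.240 (edgeR), and Dlx5 had a value of -1.01 (SE 1.56, adjusted p = 0.934). None of the 4 members and none of 5680 genes was called, with 520 genes (9.15%), among them 3 of the 4 members, at an unadjusted p under 0.05. These 3, Dlx1, Gad1 and Gad2, passed the filter on low counts only through the P43 mice, where they were high. Dlx6, with 243 UMIs in mouse 7 and 2 in mouse 5, did not pass it. The direction of the 3 tests was thus set by the filter and adds no support. DESeq2 called 5 members lower (Dlx1, Dlx2, Gad1, Gad2 and Sp9), with 1.75% of all genes lower, 0.128% higher and 1.88% in either direction. Cluster 11 was also fitted alone, chosen after the data were seen as the NB-like cluster with the most Gad1 cells. A test of Gad1 and the genes found with it is not independent of that choice and adds no support. There edgeR called Dlx1, Gad1 and Gad2 lower at P70, with 29.4% of all genes called in 1 direction or the other. The same 3 genes were called without mouse 6 (8.61% of all genes) and without mouse 7 (3.75%). Neurod1 in cluster 11 stood at 0, 0, 735 and 748 CPM in mice 4 to 7, and the reporter stood at 67.4, 416, 3038 and 2582 CPM. Among NB-like cells without a reporter UMI the ages overlapped: Gad1 stood at 177, 595, 0 and 240 CPM, Gad2 at 124, 651, 0 and 160 CPM and Dlx1 at 44.2, 223, 0 and 72.8 CPM in mice 4 to 7, with mouse 7 (32 cells) between the P43 mice and mouse 6 (30 cells) at 0. Among those with a reporter UMI, Gad1 stood at 19.8, 435, 0 and 3.19 CPM, on 1, 17, 0 and 27 UMIs.

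In OL-like cells, 3 members were tested of 11673 genes. Simulated 4-fold changes were recovered in 71.5% of genes here. This share need not hold for the members, which are sparse and differed widely between mice of the same age. The log2 change of P70 over P43 was -0.29 (SE 1.62) for Dlx1, -1.12 (SE 1.60) for Dlx2 and 1.21 (SE 1.10) for Dlx6, with an adjusted p of 0.9997 for each (edgeR). The ages overlapped for all 3. At an unadjusted p under 0.05 there were 545 genes (4.67%), and DESeq2 called 0.372% of all genes (0.154% higher, 0.218% lower) and no member. Without mouse 7, the change of Dlx6 turned to -1.82. In cells without a reporter UMI, Dlx1 (0.57, SE 1.59), Gad1 (1.02, SE 1.80) and Gad2 (0.47, SE 1.84) were tested among 12561 genes, with 1425 (11.3%) at an unadjusted p under 0.05 and 3.4% called by DESeq2, none a member. Gad1 was highest in mouse 7 there (24.5 CPM) and lowest in mouse 6 (0.208 CPM), which are both P70. Without mouse 7, Gad1 and Gad2 were called lower at P70 (15.6% of all genes called).

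Cells with at least 2 of the 8 genes were counted at 2000 UMIs per cell. They made up 0.152% (2 of 1319) and 0.413% (5 of 1210) of the cells at P43 and 0% (no cell, which allows up to 0.149%) and 0.434% (14 of 3224) at P70. The means were 0.282% and 0.217%, a difference of -0.0653 points (two-sided exact permutation test, p = 1, where 0.333 is the smallest value that 2 against 2 mice can give). The reporter was found in 1 of 2, 2 of 5 and 9 of 14 of these cells in mice 4, 5 and 7. This was 8.998 and 16.9 points more than in all other cells of mice 4 and 5 and 16.1 points less in mouse 7, with a mean difference of 3.29 points over 3 mice (two-sided exact sign-flip permutation test, p = 0.75, smallest possible 0.25). Neither difference exceeded the spread between mice.

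The neighbors of the Dlx genes were read in OL-like cells to see whether whole regions moved with them. Of the genes within 1000 kb of Dlx5 and Dlx6 that reached 10 CPM, 5 were no members, and their level in mouse 7 was between 0.623 and 1.54 times the highest of the other mice (median 1.06), against 3.72 times for Dlx6. Around Dlx1 and Dlx2 there were 12 such genes, and their level in mice 5 and 6 over that in mice 4 and 7 had a median of 1.03 (0.581 to 1.27), against 13.8 for Dlx1 and 11.8 for Dlx2.

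The genes most like the 8 members were ranked over 37 sums of a class and a mouse, by Pearson correlation of the log2 level with that of the members' sum. Wdr12 (0.785), Opcml (0.781), Rimklb (0.780), Snhg11 (0.774), Pnma2 (0.766), Spata7 (0.766), Ddx25 (0.756), Gria4 (0.753), Nop16 (0.752) and Caprin1 (0.750) led among 13989 genes. Sums of 1 mouse share its library and depth. Cell by cell, genes higher in cells with at least 2 members than in NB-like cells without a member included Cryab, Eml1, Bcas1, Cnp, Nfasc, Col9a3, Mag, Ugt8a and Bfsp2, with mean log2 ratios over 4 mice between 3.66 and 2.90 after 10 CPM were added. Several of these, such as Cnp and Mag, are myelin genes. In mouse 4 the log2 ratio was only 0.418 for Cryab, 0.517 for Cnp, 0.743 for Mag and 0.0334 for Ugt8a, and between 1.62 and 2.69 for the others named. Of the 168 cells with at least 2 members, 101 were NB-like and 57 OL-like, the latter with 1, 22, 13 and 21 in mice 4 to 7. Mice 5 and 6 had 27 and 13 such cells, so the ranking there compared mainly OL-like with NB-like cells.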

How the data were processed

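Per the labels, single cells of 4 tumors were captured with the 10x Genomics 3′ v3.1 kit, and the authors aligned the reads with Cell Ranger 6.0.2 to mm10 extended by human MYCN and FLUC. The deposited values are raw UMI counts per gene and barcode, with no normalization. Cells were kept that had 200 or more genes, a mitochondrial share under 25% and no more than 40000 UMIs. Only genes found in at least 3 cells of a library counted for these limits and for clustering. Sums, levels and tests started from all genes. Total counts of the kept cells were 12909080, 10788003, 15845183 and 39543735 UMIs in mice 4 to 7, which sets the precision of low counts. Clusters came from Seurat 5.3.0 in R 4.3.3 (2000 variable genes, anchor integration, 30 principal components, resolution 0.5). Tumor clusters had at least 500 CPM of MYCN plus FLUC, and classes were named from marker lists.

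UMIs were summed per mouse and class and tested by edgeR 4.0.16 (TMM, filterByExpr, quasi-likelihood test, Benjamini-Hochberg over all genes tested). A mouse entered with at least 5 NB-like or 20 OL-like cells. Shares were compared by exact permutation tests over mice (scipy 1.17.1), after thinning to 2000 UMIs per cell. Levels have exact Poisson and shares exact binomial (Clopper-Pearson) intervals at 95%, and 3 counts were taken as the limit that a count of 0 allows. The tests were checked on simulated data with 200 genes changed 4-fold. These genes were drawn without those of lowest expression, and all genes had 1 common dispersion, so the recovered shares need not hold for sparse genes. No label says that mice came from separate litters. The p-values refer to the spread between mice, which edgeR and DESeq2 estimate with information shared over all genes. A very low p-value from few mice thus does not measure the spread of those mice alone. Alternatives were DESeq2 1.42.0, no gene filter, 60000 UMIs, under 10% mitochondrial UMIs, resolution 1.0, no integration, listed genes kept among the variable genes, cells by marker UMIs, at least 2 reporter UMIs, only cells with 2000 UMIs, other thinning and member numbers, and leaving out each mouse. The 8 genes are always named, other listed genes where they passed a test, and the 10 most like the members by each ranking, except that some genes are not reported here. The members and lists were chosen with earlier results of these data known.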

Additional observations from a re-analysis of the deposited data

How the results depend on the processing

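Counts of members called changed with the processing in 5 of the 6 comparisons by edgeR. For NB-like cells by age, 0 members were called in the reported fit, 3 with listed genes kept among the variable genes (10.5% of all genes called), 3 in the cluster with the most Gad1 cells (29.4%, chosen after seeing the data), 4 with 60000 UMIs (2.48%), 5 by DESeq2 (1.88%) and 6 without a gene filter (2.17%), all lower at P70. For NB-like cells by reporter the count was 2 with listed genes kept (1.49%), 2 without a filter (2.17%) and 4 with at least 3 neuroblast markers (3.01%). For all kept cells by reporter DESeq2 gave 4 (41.6%) in place of 2 (38.5%). Leaving out each mouse gave 0 to 3 members by age in all kept cells (0 to 14.9% of all genes called) and in NB-like cells (0 to 8.61%), 0 to 2 in cells without a reporter UMI (0 to 15.6%) and 0 to 2 by reporter in all kept cells (14.9 to 35.6%). The cause of these changes was not tested. In NB-like cells, calls of members that passed the gene filter only through the side where they were high add no support.

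The difference in the share of cells with at least 2 members turned positive without thinning (1.01 points) and for at least 1 member (1.54), and ran from -0.282 to 0.152 points when mice were left out. The difference in reporter share turned negative at 1000 UMIs (-3.19 points), for at least 3 members (-29.3), under 10% mitochondrial UMIs (-14.0) and for Gad with Dlx (-9.30, chosen after seeing the data), and ran from -3.53 to 13.0 when mice were left out. It stayed positive for at least 1 member, at 39.4, 44.4, 49.6 and 4.96 points in mice 4 to 7. Without thinning, at unequal depth, it rose to a mean of 36.4 points (1.01, 63.2, 74.3 and 7.13). Of single genes, Dlx6 by age reversed without mouse 7 in all kept cells (-2.67, range to 3.05 over the mice left out) and in OL-like cells (-1.82, to 2.06). By reporter Dlx5 reversed without mouse 5 (-0.0316, to 0.787), Dlx1 without mouse 6 (-0.25, to 2.18) and, in NB-like cells, Dlx1 without mouse 7 (0.90, from -2.90). Dlx6 kept its sign by reporter in all 10 alternatives run (1.76 to 2.90), with 7 calls, and Gad1 in all 10 (-4.93 to -2.21), with 8 calls. Of the other alternatives, 55 kept a count or a share and 103 kept the direction and call of a gene.

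By age, NB-like cells could not be fitted without integration or under 10% mitochondrial UMIs, nor by reporter without integration or with 60000 UMIs, since too few mice had enough such cells. No paired analysis was possible because the mouse numbers in the labels differ between ages, and the fit by reporter already holds the mouse as a block. Depth limits Sp8 and Sp9, with 16 and 30 UMIs. In NB-like cells of mouse 6 all 8 genes were at 0, which allows up to 6.53 CPM each. These cells held 459423 UMIs, more than those of mice 4 and 5 (163465 and 92842). Of the 56 cells, 31 lay in cluster 8, which went against its name in this mouse. The cause of these values of 0 was not tested.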

Other observations

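The 20 cells with a Gad and a Dlx UMI differed from the 624 NB-like reporter cells in genes beyond the inhibitory lineage list. This ranking was made after seeing the data and has no test, since the cells were picked by their own genes. Among them were Nap1l5 at 842 against 2.64 CPM, the synaptic vesicle sensor Syt1 at 742 against 3.67 CPM and the long noncoding RNA Snhg11 at 909 against 12.3 CPM. Pcp4, a regulator of calmodulin, stood at 3167 against 89.1 CPM, and Trh, the thyrotropin-releasing hormone, at 274 CPM in 4 cells against 0 UMIs. Neurod1 and the imprinted gene Mest were lower, both with 0 UMIs against 645 and 251 CPM.

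The cells left out by the filters held 252 of 2296 member UMIs, with 15, 179, 47 and 11 in mice 4 to 7. In mouse 5 this stood beside 350 UMIs in kept cells, and Dlx5 had 30 UMIs in dropped barcodes against 6 in kept ones.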
